A study of Mus musculus with 3 samples.

Results

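Binding of ETO2 was examined at 9 genes that encode regulators or surface receptors of early blood progenitors, namely Myb, Meis1, Hhex, Mecom, Ikzf1, Kit, Cd34, Klf1 and Klf3, out of 22367 protein-coding genes in the annotation. A peak was assigned to a gene when its summit lay in the gene body or within 100 kb of it, or when the nearest protein-coding start site was that of the gene. Peaks of the replicates that overlapped by at least 1 bp were joined into 1 site. By this rule the 9 genes held 18 of the 3192 sites of the series, from 17 of 2335 peaks in replicate 1 and 11 of 1873 peaks in replicate 2.

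The study mapped ETO2 by ChIP-seq, that is, chromatin immunoprecipitation followed by sequencing. The samples came from wild type mouse ES cells of a mixed strain (C57Bl/6 X Sv129) that were grown into embryoid bodies, from which FLK1+ mesodermal cells were isolated. The labels list 2 ChIP samples with the ETO2 antibody sc-9741x, replicate 1 and replicate 2, and 1 input without antibody. Both ChIP peak lists carry the same ChIP number, so whether the replicates come from separate immunoprecipitations was not resolved, and a site called in both replicates is one called in both lists. The labels give day 4 of differentiation for the 3 samples, whereas the design text of the series gives day 3.5. The study's methods also give day 4 for the ETO2 ChIP. All samples share the genotype and stage, so the comparisons are between genes and between replicates. The lists hold ChIP peaks and no expression, so neither FLK1 nor expression of the 9 genes could be checked in these cells.

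ETO2, encoded by Cbfa2t3, is a co-repressor that does not bind DNA by itself. It is brought to chromatin by complexes that contain SCL (TAL1), LMO2, LDB1 and a GATA factor, in which SCL and its partner bind E-boxes and the GATA factor binds GATA motifs. In blood progenitors these complexes sit at many distal elements, often in introns or far from the gene that an element controls, and ETO2 is known to restrain genes of later blood differentiation. Assignment by distance therefore lists candidate sites near a gene and does not show which gene a site acts on.

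The sequences at the summits are given first, because motif content can be read from them directly. Each is the 100 bp centred on the replicate 1 summit (build mm9), printed 5′ to 3′ on the plus strand. Sites are named by their distance from the first protein-coding start of the gene, with a plus sign for downstream. Capitals mark the GATA motif (NGATAN with A or T as the first base and A or G as the last), any E-box (CANNTG), and the CTG and GATA of a spaced pair, each on either strand. The first 5 are the leading sites of the 5 genes with a site called in both replicates, the leading site being, among the sites of a gene called in both replicates, the one with the best mean rank of fold enrichment.
Myb −67.7 kb (chr10:20948435-20948534, plus strand): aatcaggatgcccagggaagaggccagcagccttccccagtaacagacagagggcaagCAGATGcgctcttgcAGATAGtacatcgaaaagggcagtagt
Hhex +2.88 kb (chr19:37510206-37510305, plus strand): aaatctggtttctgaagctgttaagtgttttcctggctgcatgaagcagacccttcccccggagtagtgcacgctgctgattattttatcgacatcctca
Meis1 +48.8 kb (chr11:18870072-18870171, plus strand): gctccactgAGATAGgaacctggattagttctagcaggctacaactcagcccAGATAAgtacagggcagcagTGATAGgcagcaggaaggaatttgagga
Mecom +155 kb (chr3:30253377-30253476, plus strand): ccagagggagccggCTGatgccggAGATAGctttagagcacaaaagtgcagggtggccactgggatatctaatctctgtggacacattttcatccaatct
Ikzf1 +152 kb (chr11:11736924-11737023, plus strand): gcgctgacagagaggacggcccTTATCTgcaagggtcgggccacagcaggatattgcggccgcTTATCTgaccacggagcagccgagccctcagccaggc
A further 3 are the other replicate 1 windows of the 9 genes with the spaced pair, and were chosen after their motifs were seen.
Myb −35.8 kb (chr10:20916508-20916607, plus strand): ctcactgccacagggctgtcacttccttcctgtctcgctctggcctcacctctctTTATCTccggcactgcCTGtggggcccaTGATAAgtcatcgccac
Ikzf1 +44.4 kb (chr11:11629393-11629492, plus strand): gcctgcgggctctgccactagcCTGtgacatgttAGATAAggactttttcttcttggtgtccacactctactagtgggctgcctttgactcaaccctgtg
Klf3 −215 kb (chr5:64979280-64979379, plus strand): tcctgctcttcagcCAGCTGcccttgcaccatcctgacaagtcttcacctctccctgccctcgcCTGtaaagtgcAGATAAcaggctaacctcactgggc
The last is the replicate 2 window of the single site near Cd34.
Cd34 −10.8 kb (chr1:196754150-196754249, plus strand): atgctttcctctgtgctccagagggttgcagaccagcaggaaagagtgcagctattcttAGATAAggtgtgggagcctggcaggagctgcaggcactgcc

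Of the 9 genes, 7 had at least 1 site, where 27.8% of all protein-coding genes had one by the same rule. A site called in both replicates was found at 5 genes, against a background of 11.1%. Myb had 4 such sites, Hhex had 3, and Meis1, Mecom and Ikzf1 had 1 each. With a limit of 50 or 20 kb in place of 100 kb, Myb, Hhex, Meis1 and Mecom had 1 each and Ikzf1 had 0, and by nearest start alone only Myb and Hhex had one. Cd34 and Klf3 had only sites called in 1 replicate, and Kit and Klf1 had no peak in either list. At least 3 sites called in both replicates were held by 0.554% of all genes and by Myb and Hhex among the 9, at the 100 kb limit only. These shares are descriptions, because neighbouring genes share sites and a longer gene is searched over a longer stretch, from 203 kb for Klf1 to 797 kb for Mecom.

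Of the 18 sites, 10 were called in both replicates (55.6%, 95% Wilson interval 33.7 to 75.4), compared with 31.4% of all sites. Among the replicate 1 peaks of these genes, 10 of 17 were also called in replicate 2 (58.8%, 36.0 to 78.4), where the share over the whole list was 43.0%. Among the replicate 2 peaks, 10 of 11 were also called in replicate 1 (90.9%, 62.3 to 98.4), against 54.2% of that list. The genes were chosen with earlier results known, so these shares describe the 9 genes and were not tested. In sites called in both, the summits of the replicates lay between 2 and 147 bp apart (median 30.5 bp), and 6 of 10 lay within 50 bp of each other. No distances over all shared peaks of the series are given beside these, so they describe the 10 sites only.

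No summit lay in an exon. Inside the gene to which they were assigned, 7 sites were intronic, while 4 lay in introns of a neighbouring gene and 7 were intergenic. The start of the assigned gene was the nearest protein-coding start for 7 of the 18 sites. Only the Hhex +2.88 kb site had its summits within 1 kb of a start of its gene. These location counts have no share over all sites of the series beside them, so they describe the 18 sites only. In 27 of the 28 peaks every 24-base word of the 100 bp around the summit was unique in the genome, and in the remaining peak, the replicate 1 peak at Hhex +88.7 kb, 88.3% were unique.

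**Figure D1:**
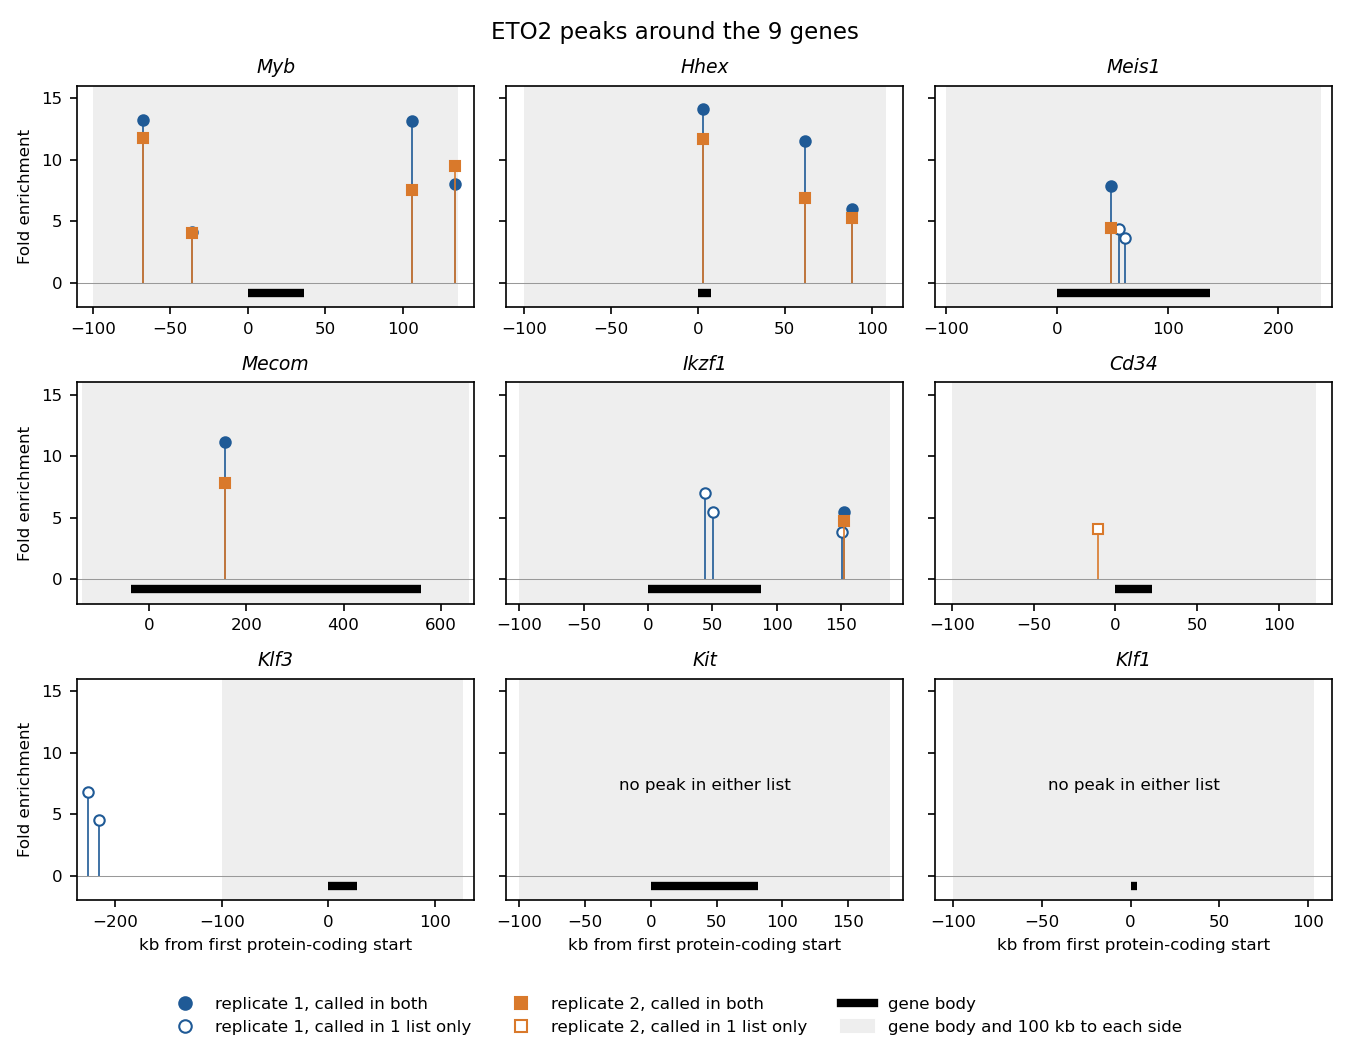
Fold enrichment of each ETO2 peak (vertical axis, ratio) against distance in kb from the first protein-coding start of each gene (horizontal axis, downstream to the right), with replicate 1 as blue circles, replicate 2 as orange squares, open symbols for peaks called in 1 list only, a black bar for the gene body and grey for the stretch searched around it. Peaks of Myb flank the gene on either side, the 3 Meis1 peaks cluster inside the gene, the 2 Klf3 peaks lie outside the searched stretch, and the Kit and Klf1 panels are empty.

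Fold enrichment is the ratio of scaled fragments at the summit to the local background, calculated by the caller in each list. A pseudocount of 1 is added to both terms. Replicate 1 was called against the input and replicate 2 without one, so levels are compared within a list only. The fragments behind each summit were recovered from the fold enrichment and the p-value, and ranged from 12 to 206 in replicate 1 (median 27) and from 18 to 236 in replicate 2 (median 35). They are given before scaling, by a factor fitted as 1.34 in replicate 1 and taken as 1 in replicate 2. With 1 library behind each value there is no replicate spread for a site, and the 95% Poisson intervals given here cover counting error only. For fold enrichment they take the local background as known. Over the 10 sites called in both, the median fold enrichment in replicate 1 was 9.62 (range 4.14 to 14.1), beside 6.83 for all peaks shared by the lists. In replicate 2 it was 7.23 (4.03 to 11.8), beside 5.38. Median fragments at these summits were 56 in replicate 1 and 52.5 in replicate 2, beside 37 and 36 for all peaks shared by the lists.

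Myb had the most sites called in both replicates at the 100 kb limit, and 1 at the shorter limits. Myb is the founding member of its family and is required for definitive blood formation and for proliferation of progenitors. The gene (ENSMUSG00000019982.7) lies at chr10:20844736-20880790 on the minus strand, and all 4 of its sites lay outside the gene body. The leading site was intergenic, 67.7 kb upstream, with a fold enrichment of 13.24 (10.4 to 16.7, 71 fragments) in replicate 1 and 11.77 (9.37 to 14.6, 80 fragments) in replicate 2. It ranked 112 of 2335 and 38 of 1873 in the lists. Its position was almost equally far from the start of Hbs1l, the neighbouring gene, at 67.3 kb.

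Beyond the other end of Myb, 2 sites lay in introns of Ahi1. The Myb +106 kb site in intron 19 of 23 had a fold enrichment of 13.12 in replicate 1 (78 fragments) and 7.52 in replicate 2 (52 fragments), with the widest gap between summits of any site, 147 bp. The Myb +134 kb site in intron 18, with summits 2 bp apart, had 8.05 in replicate 1 (37 fragments) and 9.53 in replicate 2 (71 fragments). The order of these sites was therefore reversed between the lists, and their intervals overlapped in either list. The Myb −35.8 kb site was the weakest of the 4, with 4.14 (27 fragments) and 4.03 (26 fragments), and it was the only one whose nearest start was that of Myb. Successive sites were 28.0, 142 and 31.9 kb apart.

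Hhex encodes a homeobox repressor needed for early blood and endothelial precursors and for endoderm. The gene (ENSMUSG00000024986.5, chr19:37507377-37515218, plus strand) is 7.84 kb long and held 3 sites called in both replicates. The leading site was in intron 1 of 3, 2.88 kb downstream of the first start and 0.973 kb upstream of a second annotated start. Its fold enrichment was 14.12 (11.7 to 16.9, 115 fragments) in replicate 1 and 11.71 (9.73 to 14.0, 121 fragments) in replicate 2, ranks 88 and 41, with summits 5 bp apart. By fragments it was the strongest of the 18 sites in both lists. The Hhex +61.3 kb site, which was intergenic, had 11.50 (85 fragments) and 6.93 (53 fragments), and the Hhex +88.7 kb site had 6.04 (22 fragments) and 5.31 (34 fragments). In replicate 1 the interval of the +61.3 kb site (9.21 to 14.2) lay just above that of the +88.7 kb site (3.86 to 9.04). In replicate 2 the intervals of the +2.88 kb and +61.3 kb sites did not overlap. The nearest start of both distal sites was that of Exoc6, an exocyst gene.

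Meis1, a homeobox partner of HOX proteins in stem and progenitor cells, carried its 3 sites in a single intron, intron 7 of 11 (ENSMUSG00000020160.10, chr11:18780433-18918961, minus strand). They lay 6.75 and 6.12 kb apart. The Meis1 +48.8 kb site was called in both replicates, with a fold enrichment of 7.84 (46 fragments) in replicate 1 and 4.49 (28 fragments) in replicate 2, and summits 8 bp apart. The sites at +55.6 kb (4.38, 23 fragments) and +61.7 kb (3.65, 13 fragments) were called in replicate 1 only. The intervals of neighbours in this order overlapped. The nearest protein-coding start of all 3 was that of a predicted gene, Gm16140, at 39.0 to 51.9 kb.

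Mecom encodes the zinc finger factor EVI1, which maintains blood stem cells. It was the longest of the 9 genes (ENSMUSG00000027684.9, chr3:29850221-30446930, minus strand, 597 kb) and had a single site. This site lay in intron 1 of 15, 155 kb downstream of the first protein-coding start and 116 kb upstream of the nearest other start of the gene. The protein-coding start nearest to the site was that of a predicted gene, Gm10258, at 84.6 kb. Fold enrichment was 11.19 (8.69 to 14.2, 66 fragments) in replicate 1 and 7.81 (5.99 to 10.02, 60 fragments) in replicate 2. At 900 and 720 bp it was the widest peak of the 9 genes in either list, where the median widths were 276 and 228 bp, and its summits lay 52 bp apart.

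Ikzf1 encodes IKAROS, a zinc finger factor best known for lymphoid development (ENSMUSG00000018654.10, chr11:11585006-11672929, plus strand). It had 4 sites, of which 1 was called in both replicates. That site, Ikzf1 +152 kb, lay in intron 8 of 14 of the neighbouring gene Ddc, 64.0 kb beyond the gene body, with a fold enrichment of 5.46 (44 fragments) in replicate 1 and 4.70 (39 fragments) in replicate 2. A replicate 1 peak 1.43 kb away in intron 9 of Ddc had 3.86 (28 fragments). The nearest protein-coding start of these sites was that of Fignl1, at 28.0 and 26.6 kb. Inside Ikzf1, intron 3 of 7 held 2 sites called in replicate 1 only, at +44.4 kb (7.04, 36 fragments) and +50.4 kb (5.45, 28 fragments). The highest fold enrichment of the locus in replicate 1 was thus at a site that replicate 2 did not list, although its interval (4.98 to 9.70) overlapped that of the +152 kb site (3.99 to 7.30).

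**Figure D2:**
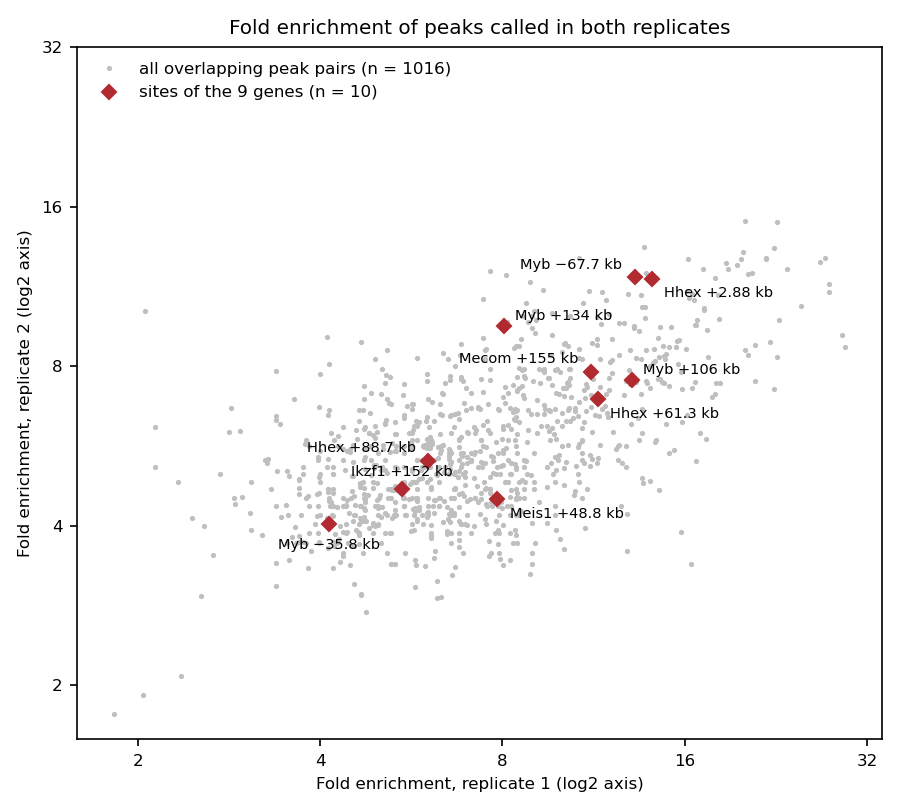
Fold enrichment in replicate 1 (horizontal axis) against replicate 2 (vertical axis), both on log2 axes, for the 1016 overlapping peak pairs of the series (grey points) and the 10 sites of the 9 genes called in both replicates (red diamonds). Myb −67.7 kb and Hhex +2.88 kb lie near the upper right of the cloud in both lists, and Myb −35.8 kb near its lower left.

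Cd34 encodes a sialomucin on the surface of blood progenitors and endothelium (ENSMUSG00000016494.3, chr1:196765015-196787486, plus strand). Its only site was an intergenic peak 10.8 kb upstream, called in replicate 2 with a fold enrichment of 4.09 (2.85 to 5.69, 33 fragments) and rank 1403 of 1873, and not called in replicate 1. The nearest site called in both replicates was 139.6 kb from the gene. Klf3 encodes a KLF repressor that acts through CtBP co-repressors and is induced by KLF1 in red cells (ENSMUSG00000029178.7, chr5:65194628-65221368, plus strand). Both of its sites were intergenic, 226 and 215 kb upstream, were called in replicate 1 only (6.78 with 35 fragments and 4.55 with 23 fragments), and were assigned by nearest start alone. The nearest site called in both replicates was 1729.8 kb away.

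The 8 sites called in a single list had between 13 and 36 fragments at the summit. How often such peaks are found in the other list was read from all peaks of like fragment number, within 10%. Of replicate 1 peaks with 33 to 39 fragments, as at Ikzf1 +44.4 kb, 58.1% overlapped a replicate 2 peak, and the share was 58.2% for those like Klf3 −226 kb. It was 39.3% at the 28 fragments of Ikzf1 +50.4 kb and 22.9% at the 23 fragments of Meis1 +55.6 kb. At the 13 fragments of Meis1 +61.7 kb it was 5.71%. Of replicate 2 peaks with 30 to 36 fragments, as at Cd34, 56.4% overlapped a replicate 1 peak. A missing call at these depths does not show absence of binding in the other library.

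**Figure D3:**
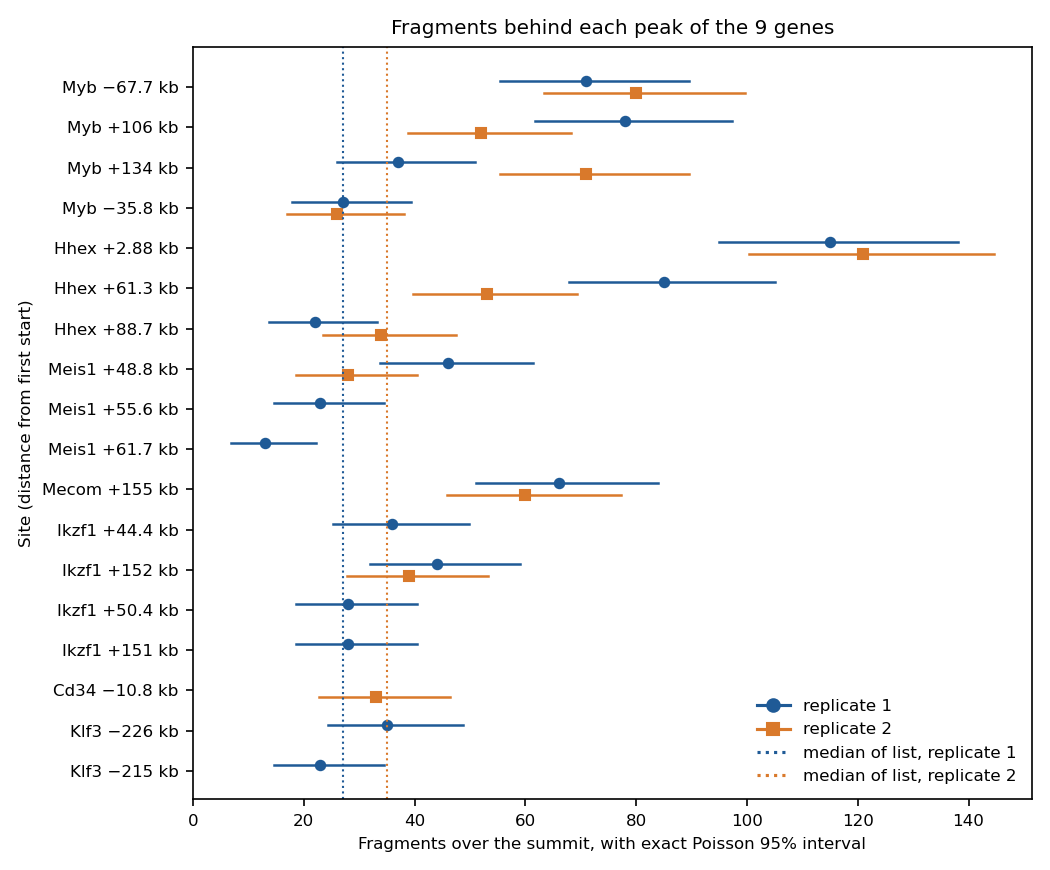
Fragments over the summit (horizontal axis) of each peak of the 9 genes, grouped by gene (vertical axis), with exact Poisson 95% intervals, in replicate 1 (blue circles) and replicate 2 (orange squares). Dotted lines mark the list medians of 27 and 35 fragments, and the 8 sites called in a single list lie between 13 and 36 fragments.

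Kit and Klf1 had no peak by the rule. Kit, the receptor for stem cell factor (ENSMUSG00000005672.6, chr5:75970941-76052747), has no other protein-coding gene within 100 kb. The nearest peak to it lay 244 kb away, nearest to the start of Kdr, which encodes FLK1, and was called in both replicates with fold enrichments of 7.98 and 4.33. Klf1, the erythroid KLF that activates adult globin genes (ENSMUSG00000054191.7, chr8:87425827-87429194), lies in a dense stretch with 14 other protein-coding genes in reach. Its nearest peak was 132 kb away with a fold enrichment of 2.24 in replicate 1, and the nearest site called in both was 171 kb away, with 10.46 and 6.40. The weakest peaks in the lists had 12 and 18 fragments. No signal outside the called peaks was read, so the lists do not show whether Kit or Klf1 had weaker occupancy.

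The motifs were counted next, since the assignment of sites used position only. The GATA motif occurred in 9 of the 10 replicate 1 windows of sites called in both (90%, Wilson interval 59.6 to 98.2) and in 2 of 20 equally long windows whose centres lay 500 bp upstream or downstream of a summit (10%, 2.79 to 30.1). Over all shared peaks it occurred in 72.5% of 1003 summit windows, which the interval of the 10 windows includes, and in 16.7% of flanks. Centred on the replicate 2 summits the count was 8 of 10, where the share over all shared peaks was 73.0%. The 8 sites called in a single list each had the motif (100%, 67.6 to 100), beside 3 of their 16 flanks (18.8%). No share over all single-list peaks is given beside this count, so it describes these 8 sites only. As a control for base composition, the motif written backwards (NATAGN with A or G as the first base and A or T as the last) was present in 1 of 10 summit windows and 1 of 20 flanks. Over all shared peaks the reversed motif was in 13.5% of summit windows and 13.0% of flanks. Around replicate 2 summits it was in 0 of 10 windows and 6 of 20 flanks, where the GATA motif was in 4 of 20 flanks. Meis1 +48.8 kb had 3 GATA motifs in its window, and Myb +106 kb, Myb −35.8 kb, Hhex +61.3 kb and Ikzf1 +152 kb had 2 each.

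The exception was Hhex +2.88 kb, the site with the most fragments. Its nearest GATA motif was centred 83.5 bp from the replicate 1 summit and 78.5 bp from the replicate 2 summit, outside the window in either list. The 4 letters GATA occurred once in its replicate 1 window without the flanking bases of the motif, and an ETS motif (AGGAA) was present at −19 bp from the summit. At Mecom, the replicate 1 window held a GATA motif and the replicate 2 window, 52 bp away, did not.

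E-boxes were present in 4 of 10 windows (40%, 16.8 to 68.7), a share whose interval includes those of all shared summits (47.9%) and of all flanks (42.0%). The form CAGCTG, which is contained in CANNTG, was in 0 of 10 windows (0 to 27.8), against 14.6% of all shared summits, which this interval includes, and 4.99% of flanks. CTG followed by 8 to 10 bases and GATA on 1 strand, whose GATA can also belong to a GATA motif, was in 2 of 10 windows (20%, 5.67 to 51.0), against 36.7% of all shared summits, again inside the interval, and 2.84% of flanks. These 2 were Mecom +155 kb with 8 bases between the elements and Myb −35.8 kb with 10. Around replicate 2 summits the pair was in 1 of 10 (10%, 1.79 to 40.4), at Myb −67.7 kb with 9 bases. The share over all shared peaks there was 38.1%, inside the interval. Among single-list sites the pair occurred in 2 of 8 (25%, 7.15 to 59.1), with no share over all single-list peaks beside it. These were Ikzf1 +44.4 kb with 10 bases and Klf3 −215 kb with 9, the latter also the only single-list window with CAGCTG.

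Motifs of other blood factors were also counted in the 10 windows. The ETS motif was in 5 of 10 (46.0% of all shared summits), the RUNX motif (TGTGGT or TGCGGT) in 2 of 10 (14.4%), the MEIS motif (TGACAG) in 2 of 10 (11.1%), and the KLF motif (CCACCC) in 1 of 10 (9.37%). With 10 windows, the intervals of these 4 shares include the shares over all shared peaks.

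**Figure D4:**
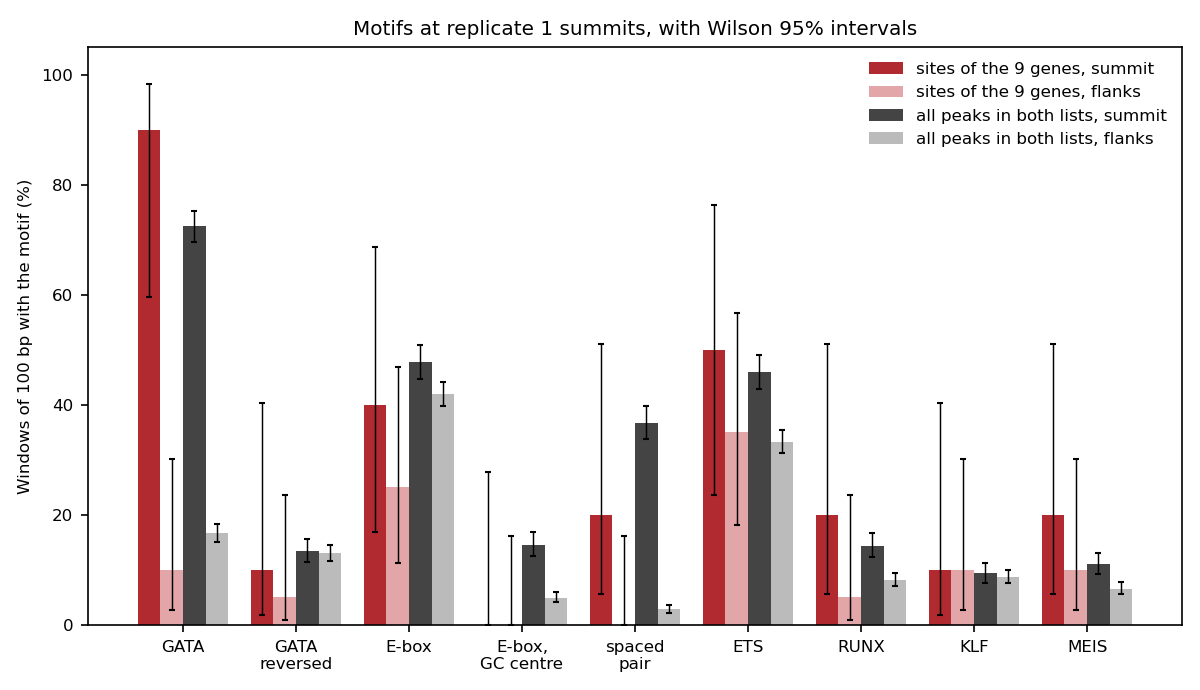
Percent of 100 bp windows with each motif (vertical axis) at replicate 1 summits and in flanks 500 bp away, for the 10 sites of the 9 genes called in both replicates (red and pink) and for all peaks shared by the lists (dark and light grey), with Wilson 95% intervals. The GATA motif is the tallest bar, at 90% of summits and 10% of flanks for the 9 genes, and the intervals over 10 windows are wide.

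**Figure D5:**
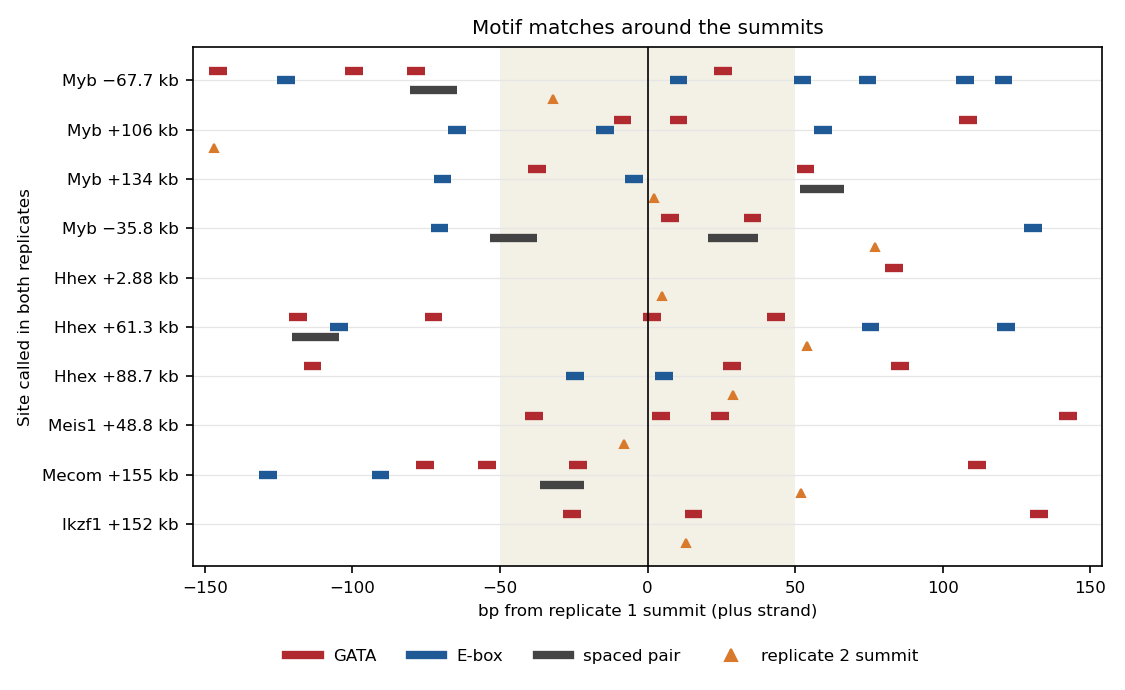
Positions of GATA motifs (red), E-boxes (blue) and spaced pairs (black) in bp from the replicate 1 summit (horizontal axis, plus strand) at the 10 sites called in both replicates (vertical axis), with the replicate 2 summit as an orange triangle and the 100 bp window shaded. Every site except Hhex +2.88 kb has a red block inside the shaded window.

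The same rule was applied to a list of other early blood genes, to place the 9 genes. Of 30 listed genes, 29 were among the protein-coding genes of the annotation, 19 had a site and 15 had a site called in both replicates, beside 7 and 5 of the 9 and 27.8% and 11.1% of all protein-coding genes. Zfpm1 and Runx1 each held 6 sites called in both, Gfi1b, Lyl1 and Fli1 held 3, and Gata2, Nfe2 and Tal1 held 2. The Tal1 locus, which encodes SCL itself, had fold enrichments of up to 26.78 in replicate 1 and 12.59 in replicate 2, whereas the highest values at the 9 genes were 14.12 and 11.77. These lists were chosen with earlier results of the series known and no test was made between them.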

How the data were processed

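ETO2 ChIP-seq peak lists of replicate 1 and replicate 2 were used. Per the study's methods and the submitters' processing notes, reads were trimmed with Trim Galore and aligned to mm9 with Bowtie, without duplicates, and MACS2 2.0.10 called the peaks at a q-value of 0.05, replicate 1 against the input and replicate 2 without one. The deposited values are an integer score, a fold enrichment (ratio), −log10 p and −log10 q, as calculated by the authors. A list of regions for the whole series was not used. Both peak lists carry the same ChIP number although the design text gives independent differentiations, and whether they share an immunoprecipitation was not resolved.

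Summit fragments (12 to 206 in replicate 1, 18 to 236 in replicate 2) were recovered by solving fold enrichment (pseudocount 1) and Poisson p together, which gave whole fragments for 100% of peaks within 0.001 in −log10 p, and for 100% of 400 simulated peaks per list. The simulated peaks were made with the same formulas and scaling, so they check the solving and not the assumed model. Genes came from GENCODE on the same build, with introns from the transcript with the longest coding sequence. Scripts ran in Python 3.11.15 with SciPy 1.17.1. The genes, lists, motifs and the rule for named sites (all sites called in both replicates, and the strongest single-list site of each gene, the others being named beyond it) were chosen with earlier results of these data known. Alternatives were other distances, q-value, fold enrichment, overlap, window and uniqueness limits, and each replicate alone.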

Additional observations from a re-analysis of the deposited data

How the results depend on the processing

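The number of sites depends on the distance allowed and on the fold enrichment required. With 50 or 20 kb in place of 100 kb the 9 genes held 11 sites at either distance, of which 4 were called in both replicates, and by nearest start alone they held 7, of which 2 were called in both. At a fold enrichment of at least 5 the 9 genes held 12 sites, of which 7 were called in both. With an overlap of at least 50% of each peak, 8 sites were called in both. The number of genes with a site called in both was 2 by nearest start alone and 3 at a fold enrichment of at least 5. The share of sites called in both with the GATA motif was 50% by nearest start alone (1 of 2 sites) and 100% in windows of 200 bp. The share with the spaced pair, 20% in the main setting, was 50% at 50 kb, at 20 kb and by nearest start alone. It was 40% in windows of 200 bp, 14.3% at a fold enrichment of at least 5 and 12.5% at an overlap of 50%. These shares rest on few sites. The background share of all genes was 7.25% at 50 kb, 5.11% at 20 kb, 3.74% by nearest start alone, 10.3% at a q-value of at most 1e-05, 6.55% at a fold enrichment of at least 5, 10.1% at an overlap of 50%, 10.6% with summits within 100 bp and 10.5% with unique windows only. Without 1 replicate the number of sites ranged from 11 to 17, the GATA share from 81.8% to 94.1% and the share with the spaced pair from 9.09% to 23.5%, and sites called in both could not be counted. Among sites called in both lists, the leading site was the same in 5 of 5 genes by p-value rank and by the fold enrichment of either replicate. Meis1, Mecom and Ikzf1 had 1 such site each, so the leading site could have changed only at Myb and Hhex. Among all replicate 1 peaks, the highest fold enrichment at Ikzf1 was instead at the +44.4 kb site, which replicate 2 did not list. No paired analysis was possible because the lists hold 1 group of ChIP samples and no test was made. The weakest peaks in the lists had 12 and 18 fragments, and signal outside the called peaks was not read.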

Other observations

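Relatives of the 9 genes were examined by the same rule. Of 28 relatives, 16 had a site and 6 had a site called in both replicates, where the shares over all protein-coding genes were 27.8% and 11.1%. A site called in both was found at 4 of the 15 KLF relatives listed, and the other 11 had none, as did Klf1 and Klf3. Among the 4, Klf6 reached a fold enrichment of 14.93 in the first list and 6.22 in the second, Klf2, a flow-responsive factor of endothelium, had 10.34 and 9.93, Klf7 had 9.68 and 5.02, and Klf17 had 4.39 and 5.11. Ikzf2, which encodes HELIOS, had 7.81 and 4.09. Kdr had 2 sites called in both replicates, with fold enrichments of up to 8.46 and 7.65, and its neighbour Kit had none within 100 kb. Meis2, Meis3 and Mybl2 had no site, and Mybl1 had 1 that was called in a single list.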
